A study of Mus musculus with 12 samples.

Results

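MHC class II genes and Ciita are the subject here: H2-Aa, H2-Ab1, H2-Eb1, H2-DMa, H2-DMb1, H2-DMb2, H2-Oa, H2-Ob, Cd74 and Ciita, matched to the deposited table by Ensembl identifier. They are 10 of 55401 genes in the table, and all 10 kept enough counts to be tested, as did 20818 genes in total. RNA was sequenced from 12 mouse tumors, 3 in each of 4 groups, with 1 library per mouse after the left and right flank tumors had been combined. Every mouse received low-arsenic chow and was injected under the skin with 125000 cells of TC2Ras, a prostate cancer line with constitutive Ras signaling, and tumors were taken at day 21. Control tumors grew from TC2Ras cells alone in mice on water with 0 ppb inorganic arsenic (iAs). ASC tumors had 1% ASC-GFP cells, adipose-derived stromal cells from young adult male C57BL/6 donors that carry GFP under the ubiquitin C promoter, among the injected cells and 0 ppb iAs. As300 tumors (A300 in the labels) grew from TC2Ras cells alone while the mice drank water with 300 ppb iAs. ASC_As300 tumors combined the admixed cells with this water. The strain, sex and age of the recipient mice are not given in the sources used here. By the labels the cell type is adipose stromal, although the protocols describe whole tumors. The summed level of 7 stromal markers, most of it Col1a1, was 1758 to 3349.9 CPM (counts per scaled library size). That of 5 epithelial markers, most of it Krt8, was 26.9 to 362 CPM, and these sums are not scaled to gene length. Control 1 stood apart from the other 11 tumors by its markers of B cells and lymph node stroma and by its epithelial sum of 362 CPM, against 26.9 to 119 CPM elsewhere, and the results are given with and without it. Since these are bulk tumors, fewer cells of a type and less RNA per cell cannot be told apart.

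Class II molecules are pairs of an alpha and a beta chain that carry peptides from engulfed proteins to the surface of antigen presenting cells, where CD4+ T cells read them. H2-Aa and H2-Ab1 encode the chains of I-A, and H2-Eb1 encodes the beta chain of I-E, whose alpha gene is inactive in C57BL/6 mice and is annotated there as the pseudogene H2-Ea-ps. Cd74, the invariant chain, blocks the groove until the molecule reaches the endosome, where H2-DM (H2-DMa with H2-DMb1 or H2-DMb2) helps exchange its remnant for peptide, and H2-DO (H2-Oa with H2-Ob), known mainly from B cells, inhibits H2-DM. Ciita is the coactivator that switches these genes on. It is made constitutively by dendritic cells and B cells, and interferon gamma induces it in many other cells.

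The 8 H2 genes lie within 224.3 kb of chromosome 17 (chr17:34092340-34316674, GRCm38), and Ciita is on chromosome 16. RefSeq promoter windows of 300 bases (250 before and 50 after the start, GRCm38.p6) were tallied for 7 of the 10 genes, all of them H2 genes. No window was at hand for H2-Ab1 or Ciita. Cd74 was left out of the search, so the tally of member windows does not cover it. The letters of an X box core (CNNNNAAC) followed after 22 to 28 bases by a Y box core (TGATTGG), searched on both strands and chosen after looking at the members, were found in 6 of the 8 windows of the H2 genes. The same pair was in 0.204% of all 32851 promoter windows, and the Y box core alone was in 7.82%. The X box is the textbook binding site of the RFX complex and the Y box that of NF-Y, and Ciita docks on both. The stretches that hold the pair are shown because they occur both in members that rose with ASC in the tests given below (H2-Aa, H2-Eb1 and H2-DMb1) and in members that did not pass (H2-DMb2, H2-Oa and H2-Ob), 5′ to 3′ on the gene's strand, with the X and Y cores in capitals:
H2-Aa (chr17:34287861-34287913, minus strand): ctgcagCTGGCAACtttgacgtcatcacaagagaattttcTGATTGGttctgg
H2-Eb1 (chr17:34305767-34305818, plus strand): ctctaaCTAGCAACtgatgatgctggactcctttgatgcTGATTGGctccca
H2-DMb1 (chr17:34153088-34153140, plus strand): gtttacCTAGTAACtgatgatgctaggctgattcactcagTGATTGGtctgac
H2-DMb2 (chr17:34145117-34145169, plus strand): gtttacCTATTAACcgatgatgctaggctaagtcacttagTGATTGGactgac
H2-Oa (chr17:34092294-34092346, plus strand): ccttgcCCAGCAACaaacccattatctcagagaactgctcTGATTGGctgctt
H2-Ob (chr17:34238809-34238858, plus strand): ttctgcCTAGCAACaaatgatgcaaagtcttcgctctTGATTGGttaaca
The Y core began at positions -92 to -45 relative to the RefSeq start on which each window was placed. For some genes that start is not the gene start of the annotation used for the span above. Neither of the 2 windows of H2-DMa held these letters.

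Levels of different genes were compared only as CPM per kb of annotated exon. In ASC tumors the order was Cd74 at 579.7 ± 20.2 CPM per kb, H2-Eb1 at 176 ± 19.9, H2-Ab1 at 137 ± 10.7 and H2-Aa at 104 ± 6.99 (SD, n = 3). The peptide exchange genes followed, with H2-DMb1 at 25.9 ± 0.844, H2-DMa at 14.8 ± 0.663 and H2-DMb2 at 3.85 ± 0.901 CPM per kb (SD, n = 3). Ciita at 0.873 ± 0.382, H2-Oa at 0.838 ± 0.420 and H2-Ob at 0.496 ± 0.255 CPM per kb (SD, n = 3) came last, and these 3 did not differ beyond their spread. In As300 tumors Cd74 was at 162 ± 21.3, H2-Eb1 at 44.5 ± 6.26, H2-Ab1 at 36.3 ± 5.22 and H2-Aa at 28.1 ± 4.22 CPM per kb (SD, n = 3), in the same order but lower. There H2-Eb1 overlapped with H2-Ab1, and H2-Ab1 with H2-Aa. Of the CPM per kb summed over the 10 genes, Cd74 made up 53.9% to 58.3% in every tumor. The placing of H2-Eb1 above H2-Ab1 depends on the exon length: by the longest transcript H2-Ab1 was at 289 ± 22.7 CPM per kb in ASC tumors.

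**Figure D1:**
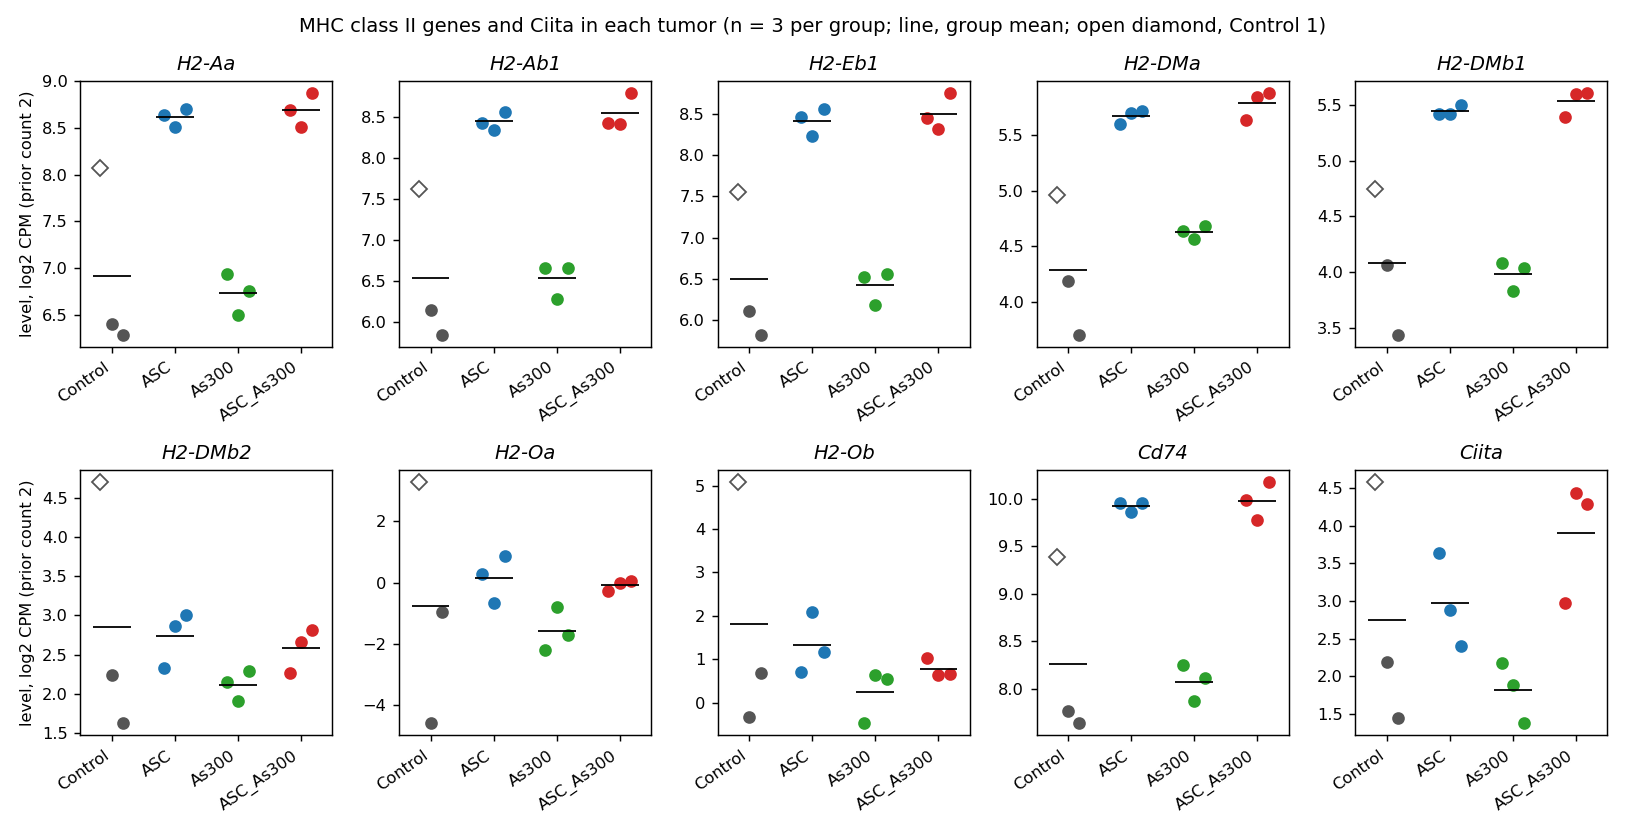
Level of each of the 10 genes in each tumor, as log2 CPM with a prior count of 2, in 4 groups of 3 tumors (points), with the group mean (line) and Control 1 as an open diamond. In H2-Aa, H2-Ab1, H2-Eb1, H2-DMa, H2-DMb1 and Cd74 the 6 tumors with ASC lie above all 6 without, while in H2-DMb2, H2-Oa, H2-Ob and Ciita Control 1 is the highest tumor.

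The genes of the class II chains and the invariant chain were higher in tumors with ASC. H2-Ab1 was at 197, 71.0 and 57.4 CPM in the 3 Control tumors, at 346, 325 and 379.9 CPM in ASC, at 101, 77.8 and 101 CPM in As300 and at 346, 343 and 445 CPM in ASC_As300. Every tumor with ASC was above every tumor without, which was so for 1.68% of all tested genes, and among those without, Control 1 was the highest. In the fit over all genes H2-Ab1 rose by 1.69 ± 0.35 (log2 fold change ± SE, edgeR quasi-likelihood adjusted p = 0.0495), or 3.23-fold, in ASC against Control. In ASC_As300 against Control it rose by 1.80 ± 0.35 (adjusted p = 0.0308).
H2-Eb1 was at 187, 68.9 and 56.7 CPM in Control, 352, 299.8 and 375 CPM in ASC, 92.3, 72.5 and 94.7 CPM in As300 and 348, 317 and 429.6 CPM in ASC_As300. Its groups with and without ASC did not overlap either, and it rose by 1.72 ± 0.35 in ASC (adjusted p = 0.0426) and by 1.81 ± 0.35 in ASC_As300 (adjusted p = 0.0283), each against Control. H2-Ea-ps was listed at 0 in 11 tumors and had 0.0613 CPM in the other.
H2-Aa was at 268, 84.6 and 78.1 CPM in Control, 399, 364 and 416 CPM in ASC, 122, 90.3 and 108 CPM in As300 and 414, 366 and 468 CPM in ASC_As300. Cd74, the most abundant of the 10, was at 669, 218 and 199 CPM in Control, 994, 934 and 991 CPM in ASC, 304, 233 and 276 CPM in As300 and 1013, 876 and 1161 CPM in ASC_As300. Both genes split the tumors with and without ASC in the same way, but neither passed the test against Control. The log2 fold change in ASC was 1.45 ± 0.36 for H2-Aa (adjusted p = 0.101) and 1.43 ± 0.36 for Cd74 (adjusted p = 0.1001), with 0.0741 and 0.0772 as the adjusted p in ASC_As300.

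The H2-DM genes, which encode the peptide exchange factor, were not alike. H2-DMa was at 31.2, 18.1 and 13.0 CPM in Control, 48.4, 52.0 and 52.7 CPM in ASC, 24.9, 23.6 and 25.7 CPM in As300 and 49.8, 57.6 and 58.8 CPM in ASC_As300. H2-DMb1 was at 26.8, 16.6 and 10.8 CPM in Control, 42.8, 42.8 and 45.2 CPM in ASC, 16.9, 14.2 and 16.4 CPM in As300 and 41.8, 48.4 and 48.7 CPM in ASC_As300. The tumors with ASC again lay above all others. In ASC against Control, H2-DMa rose by 1.295 ± 0.229 (adjusted p = 0.0175) and H2-DMb1 by 1.27 ± 0.24 (adjusted p = 0.0253), smaller changes than those of H2-Ab1 and H2-Eb1, although this difference in size was not tested. In ASC_As300 against Control, H2-DMa rose by 1.42 ± 0.23 (adjusted p = 0.00926) and H2-DMb1 by 1.36 ± 0.24 (adjusted p = 0.0155).
H2-DMb2, the neighboring second beta gene, was at 26.0, 4.66 and 3.04 CPM in Control, 4.96, 7.26 and 7.97 CPM in ASC, 4.38, 3.70 and 4.86 CPM in As300 and 4.76, 6.30 and 7.00 CPM in ASC_As300. Control 1 was the highest tumor and Control 3 the lowest, so that the groups overlapped, and the log2 fold change of -0.74 ± 0.59 in ASC did not pass (adjusted p = 0.594). The coding sequences of H2-DMb1 and H2-DMb2 are both 783 bases long and 95.9% identical, with a longest identical run of 221 bases, so the split of reads between them is uncertain. When the pair was counted as 1 feature, its log2 fold change was 0.78 ± 0.34 in ASC against Control (adjusted p = 0.303) and 0.84 ± 0.34 in ASC_As300 against Control (adjusted p = 0.2802), which ends the calls of H2-DMb1 in these comparisons, as did the value of 1.38 ± 0.35 in ASC_As300 against As300 (adjusted p = 0.119). The ASC effect over both iAs levels was still called for the pair, at 1.08 ± 0.24 (adjusted p = 0.0423). Exons of Brd2, on the strand opposite to H2-DMa, cover 10.4% of the exon bases of H2-DMa.

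The H2-DO genes were low outside Control 1. H2-Ob was at 34.0, 0.748 and 1.56 CPM in Control, 1.58, 4.21 and 2.21 CPM in ASC, 0.675, 1.51 and 1.41 CPM in As300 and 2.01, 1.501 and 1.54 CPM in ASC_As300. H2-Oa had 468, 0 and 22 counts in Control, 58, 22 and 76 counts in ASC, 7, 26 and 15 counts in As300 and 42, 48 and 50 counts in ASC_As300. For both genes 1 Control tumor held by far the highest value and the other Control tumors lay within or below the range of the other groups. A count of 12 or less was treated as at the floor, which Control 2 and As300 1 met for H2-Oa. Neither gene passed in ASC against Control, where the fitted log2 value was -2.19 ± 1.03 for H2-Ob (adjusted p = 0.335) and -1.52 ± 1.24 for H2-Oa (adjusted p = 0.606). Exons of BC051537, on the opposite strand, cover 22.8% of the exon bases of H2-Oa, and whether strand was used in counting is not given in the sources used here.

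Ciita, the coactivator of the other 9 genes, overlapped between the tumors with and without ASC, as did H2-DMb2, H2-Oa and H2-Ob. It was at 23.9, 4.55 and 2.69 CPM in Control, 12.3, 7.34 and 5.27 CPM in ASC, 4.48, 3.66 and 2.56 CPM in As300 and 7.84, 21.5 and 19.4 CPM in ASC_As300. Control 1 was the highest of the 12 tumors, and the ASC tumors overlapped with Control. The log2 fold change was -0.32 ± 0.66 in ASC (adjusted p = 0.871), -1.54 ± 0.68 in As300 (adjusted p = 0.186) and 0.65 ± 0.66 in ASC_As300 (adjusted p = 0.683), each against Control. Between ASC_As300 and As300, whose tumors did not overlap (higher without overlap in 11.3% of all genes), it was 2.19 ± 0.69 (adjusted p = 0.256).

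Counted over the 10 genes, 4 passed as higher and 0 as lower in ASC against Control (edgeR quasi-likelihood test, adjusted p under 0.05 and at least 1.5-fold). Of all tested genes 0.706% were called up and 0.0144% down. The median log2 fold change of the 10 was 1.28, against -0.0044 over all tested genes. In ASC_As300 against Control 4 of 10 were called up, beside 0.783% of all genes (0.024% down), and they were H2-Ab1, H2-Eb1, H2-DMa and H2-DMb1 in both comparisons, which share the 3 Control tumors. In ASC_As300 against As300, which uses no Control tumor, 6 of 10 were called up beside 0.793% of all genes (0.0624% down). There H2-Eb1 rose by 2.08 ± 0.35 (adjusted p = 0.0127), H2-Ab1 by 2.02 ± 0.36 (adjusted p = 0.0165), H2-Aa by 1.96 ± 0.37 (adjusted p = 0.0256) and Cd74 by 1.91 ± 0.36 (adjusted p = 0.0267). H2-DMb1 rose by 1.55 ± 0.24 (adjusted p = 0.00607) and H2-DMa by 1.16 ± 0.23 (adjusted p = 0.0320).
Over both iAs levels the ASC effect was called for the same 6 genes, beside 1.36% of all genes called up and 0.0865% called down. It was 1.90 ± 0.25 for H2-Eb1 (adjusted p = 0.000852), 1.86 ± 0.25 for H2-Ab1 (adjusted p = 0.00115), 1.71 ± 0.26 for H2-Aa (adjusted p = 0.00291), 1.67 ± 0.25 for Cd74 (adjusted p = 0.00296), 1.41 ± 0.17 for H2-DMb1 (adjusted p = 0.000382) and 1.23 ± 0.16 for H2-DMa (adjusted p = 0.000931). In these 6 genes all 6 tumors with ASC exceeded all 6 without. Leaving out any 1 of the 12 tumors left 6 or 7 of the 10 genes called in this effect. The pairwise calls were less stable: in ASC against Control 0 genes were called without Control 2, without ASC 2, without ASC 3 or in a fit of the 6 tumors compared.

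**Figure D2:**
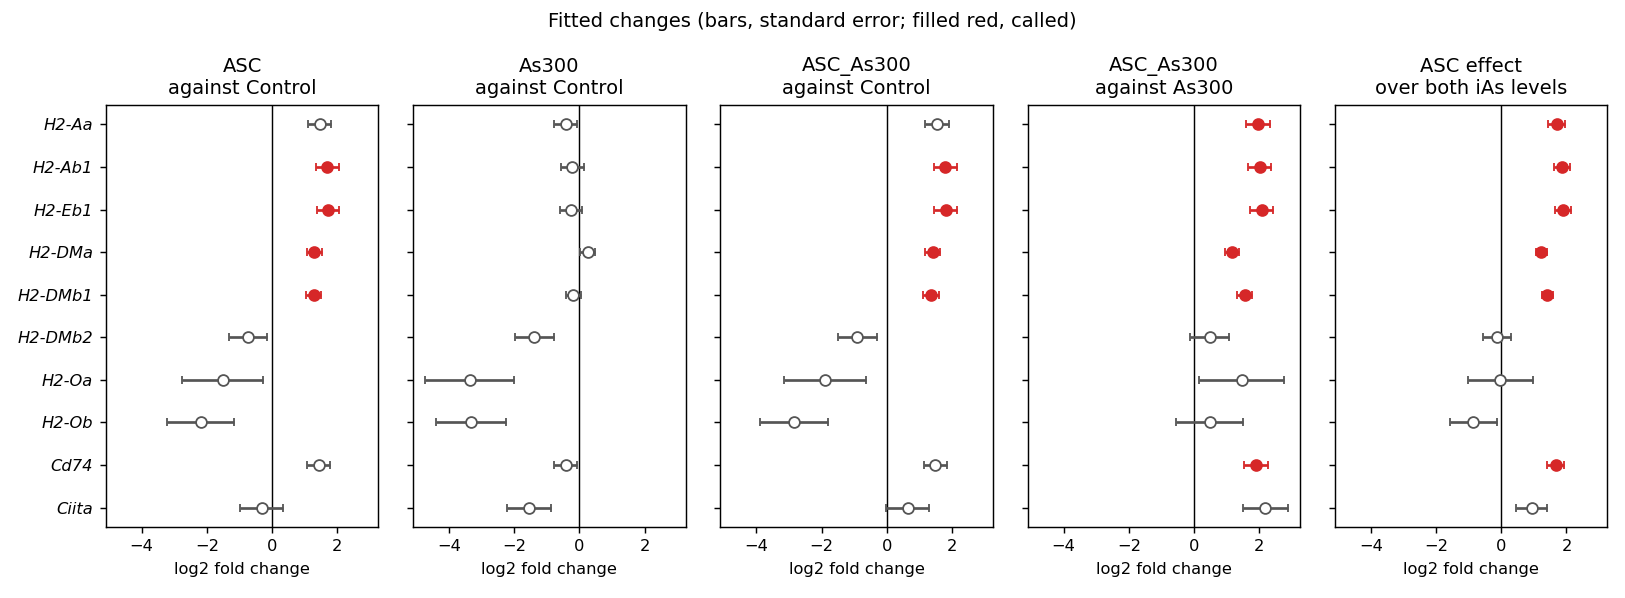
Fitted log2 fold change of each gene (points, with standard error bars) in 5 comparisons, filled red where called. 4 genes are called in ASC and ASC_As300 against Control, 0 in As300 against Control, and 6 in ASC_As300 against As300 and in the ASC effect over both iAs levels.

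Control 1 was the highest of the tumors without ASC in all 10 genes. In it H2-Aa was 3.29-fold, Cd74 3.21-fold, H2-Ab1 3.06-fold and H2-Eb1 2.98-fold the mean of the other 2 Control tumors. H2-DMa and H2-DMb1 were 2.01-fold and 1.95-fold that mean, while H2-DMb2 was 6.76-fold, Ciita 6.6-fold and H2-Ob 29.4-fold. These are values of 1 tumor and carry no test. The summed level of 10 B cell markers was 250.2 CPM in Control 1 and 8.12 to 30.5 CPM in the other 11 tumors, and that of 6 lymph node stroma markers was 55.5 CPM against 0.194 to 2.75 CPM. H2-Ob, H2-Oa and H2-DMb2 were the members most raised in this tumor beside these markers, and the part of other tissue in their levels was not tested.
Because Control 1 was the highest Control tumor in every member, leaving it out was bound to raise the changes against Control. Only Control 2 and Control 3 then remain in that group, so the values below are no separate support. Without Control 1, 6 of 10 genes were called up in ASC against Control (0.979% of all genes) and in ASC_As300 against Control (0.919%). The log2 fold change in ASC was then 2.28 ± 0.15 for H2-Aa and 2.23 ± 0.14 for Cd74 (adjusted p = 2.48e-05 for both), and 2.46 ± 0.17 for H2-Ab1 (adjusted p = 2.76e-05). Ciita turned from negative to 1.21 ± 0.47 (adjusted p = 0.274), H2-Ob to 1.22 ± 0.51 (adjusted p = 0.302) and H2-DMb2 to 0.81 ± 0.29 (adjusted p = 0.228), none of which passed. In the ASC effect over both iAs levels Ciita was called as well without Control 1, at 1.69 ± 0.32 (adjusted p = 0.0123, 7 of 10 genes called, beside 1.86% of all genes). The same holds in ASC_As300 against As300, where Ciita was at 2.17 ± 0.42 (adjusted p = 0.0253, 7 of 10 genes called, beside 1.07% of all genes). Control 1 is in neither of these groups. It enters there only through the filter on low counts, the scaling, the shared estimate of the spread and the adjustment over all tested genes.

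**Figure D3:**
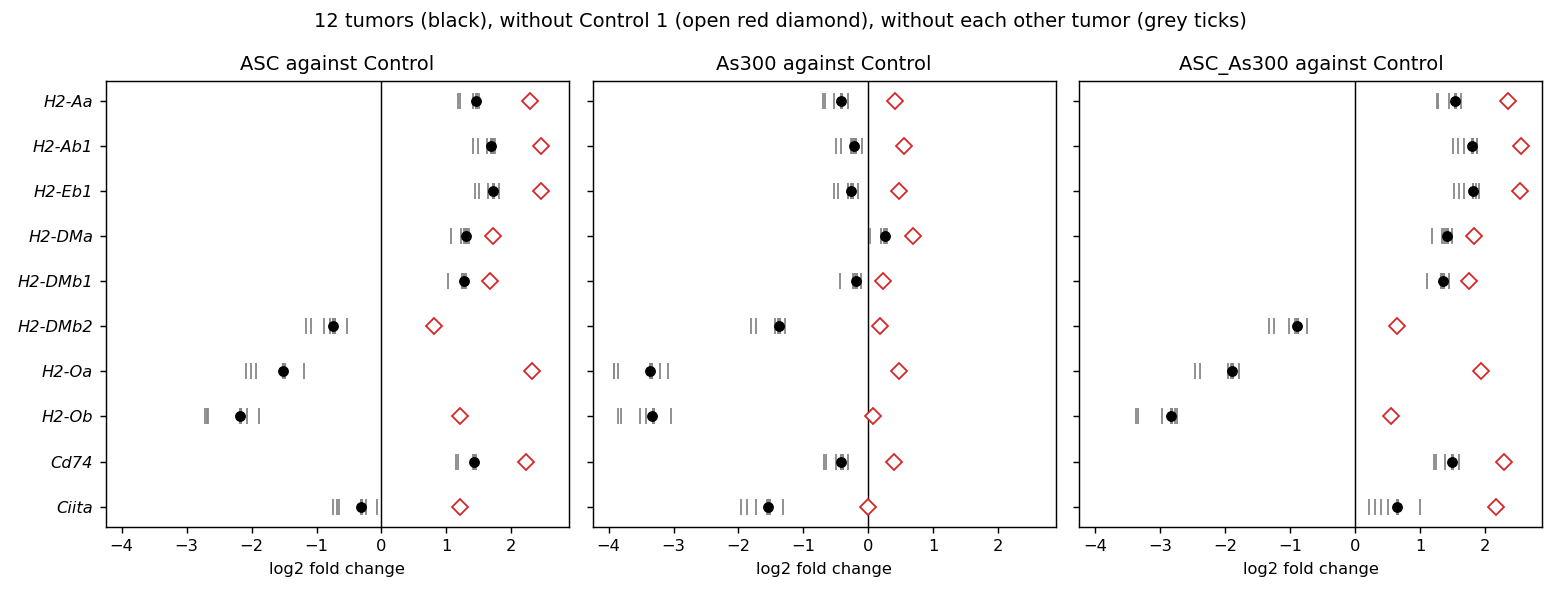
Log2 fold change against Control of each gene with all 12 tumors (black point), without Control 1 (open red diamond) and without each of the other 11 tumors in turn (grey ticks). In ASC against Control the values of Ciita, H2-DMb2, H2-Oa and H2-Ob lie below 0 except without Control 1, where they lie above 0.

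Arsenic alone did not give a call in any of the 10 genes. In As300 against Control 0 of 10 were called by edgeR or DESeq2, beside 0.701% of all genes called up and 0.355% called down. At an unadjusted p under 0.05, 4 were lower (H2-DMb2, H2-Oa, H2-Ob and Ciita), beside 13% of all genes. The log2 fold changes of H2-Aa, H2-Ab1, H2-Eb1, H2-DMa, H2-DMb1 and Cd74 lay between -0.43 and 0.25. Without Control 1 all but Ciita (-0.01 ± 0.45) were above 0, up to 0.69 ± 0.14 for H2-DMa (adjusted p = 0.0660). In that fit 0 of 10 members and 0% of all genes were called up, and 5 members (H2-Aa, H2-Ab1, H2-Eb1, H2-DMa and Cd74) were higher at an unadjusted p under 0.05, beside 10.8% of all genes.
In ASC_As300 against ASC 0 of 10 were called by edgeR or DESeq2, as were 0% of all genes by edgeR, and 0 of 10 had an unadjusted p under 0.05, beside 1.47% of all genes higher and 1.74% lower. The largest values were 0.96 ± 0.66 for Ciita and -0.66 ± 1.01 for H2-Ob, and those of the 6 genes that rose with ASC were between 0.06 and 0.12 with standard errors of 0.22 to 0.36. The iAs effect over both ASC levels gave 0 calls among the members by either tool and called 0% of all genes by edgeR in either direction, with 1 gene (H2-Ob, -1.99 ± 0.73, adjusted p = 0.231) lower at an unadjusted p under 0.05, beside 8.46% of all genes. Without Control 1 the value of H2-Ob was -0.29. The interaction of ASC and iAs likewise gave 0 calls among the members by either tool and 0% of all genes by edgeR. Ciita had the largest value for its error (2.51 ± 0.95, unadjusted p = 0.0208, adjusted p = 0.3205), beside 7.08% of all genes higher at an unadjusted p under 0.05. It was 0.97 without Control 1.

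Within a tumor some of these genes kept a near fixed proportion. The ratio of Cd74 to H2-Aa in CPM per kb was 5.39 to 5.85 over all 12 tumors, and that of H2-Eb1 to H2-Ab1 was 1.21 to 1.34, although the levels of the same genes differed several-fold between tumors. Control 1 was no exception, at 5.65 and 1.26. By the root mean square difference of log2 CPM profiles, each centered on its own mean over the 12 tumors, Cd74 and H2-Aa were the closest pair of members (0.04), followed by H2-Eb1 and H2-Ab1 (0.05).
Other ratios moved. H2-DMb1 to H2-DMa was 1.23 to 1.39 in As300 and 1.69 to 1.88 in the other 9 tumors, and H2-DMb1 to H2-DMb2 was 5.90 to 9.12 in the 6 tumors with ASC and 1.07 to 4.00 in the 6 without. These 2 ratios were picked after their values were seen and carry no test. H2-Ob to H2-DMb1, a ratio of the inhibitor's gene to that of its target, was 0.397 in Control 1 and 0.00969 to 0.0453 in the other 11. H2-Ab1 to Ciita ran from 30.6 in Control 1 to 268 in ASC 3. ASC 3, with 5.27 CPM of Ciita, had 379.9 CPM of H2-Ab1, and ASC_As300 2, with 21.5 CPM of Ciita, had 343.

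**Figure D4:**
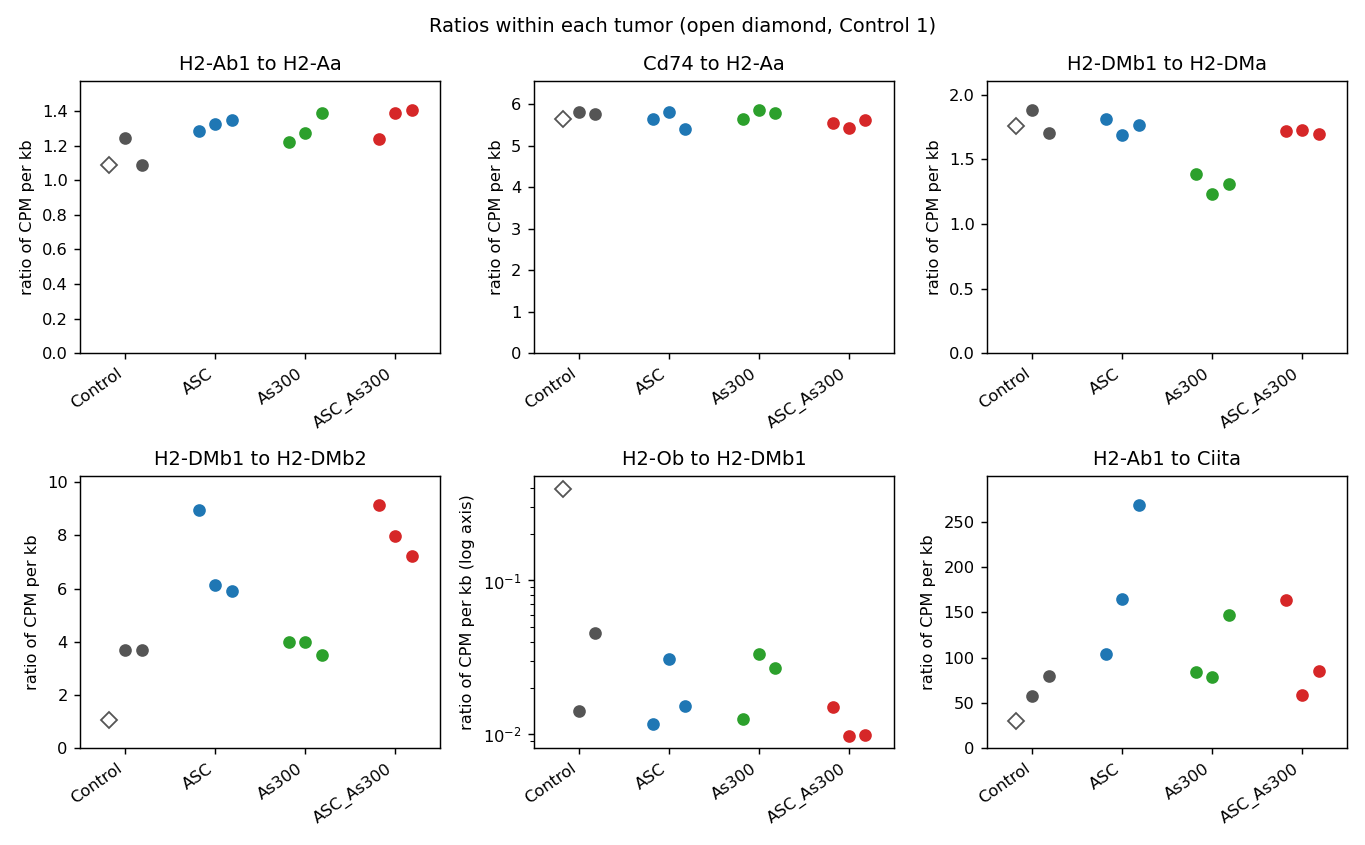
Ratio of CPM per kb between pairs of members within each tumor (points; Control 1 as an open diamond), on axes from 0 except for H2-Ob to H2-DMb1, which is on a log axis. Cd74 to H2-Aa stays within 5.39 to 5.85, whereas H2-DMb1 to H2-DMa is lower in the 3 As300 tumors and H2-Ob to H2-DMb1 is highest in Control 1.

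Genes that act before and after the members were followed as lists. Of 10 genes that lead from interferon gamma to Ciita, 3 were called up in ASC, Irf1 and Socs1 among them, and 4 in ASC_As300, with Ifng added, each against Control. Irf1, a transcription factor that acts on the inducible Ciita promoter, was at 50.7 to 68.1 CPM in Control, 143 to 178 CPM in ASC, 51.5 to 59.6 CPM in As300 and 155 to 188 CPM in ASC_As300, and it rose by 1.49 ± 0.12 in ASC (adjusted p = 0.000167). Socs1, a feedback inhibitor of cytokine signaling, rose by 1.45 ± 0.18 in ASC (adjusted p = 0.00166). Ifng itself was at 12 counts or less in each Control tumor (0.0868 to 0.2303 CPM) and at 1.72 to 2.31 CPM in ASC, where it did not pass (adjusted p = 0.0563), and at 1.86 to 3.52 CPM in ASC_As300, where it did (adjusted p = 0.0347).
Of the 7 factors that bind the promoters shown above, 0 were called in ASC, As300 or ASC_As300 against Control by edgeR. Creb1 in As300 was at -0.54 ± 0.13 (adjusted p = 0.048), which passes the adjusted threshold but not the minimum of 1.5-fold. At an unadjusted p under 0.05, 0 of 7 differed in ASC, 1 was higher and 3 were lower in As300, and 1 was lower in ASC_As300. Rfx5, the DNA-binding subunit of the RFX complex, was at 56.3 to 72.1 CPM in Control, 47.5 to 59.2 CPM in ASC, 43.7 to 63.4 CPM in As300 and 51.8 to 60.8 CPM in ASC_As300, with a log2 fold change of -0.30 ± 0.15 in ASC (adjusted p = 0.351). Of 4 lineage factors that act on Ciita, 0 were called by edgeR in ASC (2 were higher at an unadjusted p under 0.05) and 1 in ASC_As300, Spi1, which specifies myeloid cells, at 0.60 ± 0.13 (adjusted p = 0.0495).
Of 9 genes for peptide supply and class II turnover, 1 was called in ASC and in ASC_As300, Ctss, the cathepsin that cleaves the invariant chain. It was at 166 to 203 CPM in Control, 293 to 402 CPM in ASC, 166 to 195 CPM in As300 and 318 to 385 CPM in ASC_As300, and rose by 0.95 ± 0.13 in ASC (adjusted p = 0.00241). Of 8 costimulatory molecules and ligands, 1 was called in each, Cd274, which encodes PD-L1, at 1.35 ± 0.21 in ASC (adjusted p = 0.00708). Of 4 tested genes for receptors that read class II or act beside it, 1 was called in each, Lag3, an inhibitory receptor that binds class II, at 1.87 ± 0.37 in ASC (adjusted p = 0.0379). Cd4 was at -0.68 ± 0.40 in ASC (adjusted p = 0.444), with Control 1 included. It had 15.1 CPM in Control 1, 5.30 and 5.64 CPM in the other Control tumors and 6.52, 6.67 and 3.1 CPM in ASC. A value of Cd4 without Control 1 is not given here. H2-Eb2, a further class II beta gene, was at 5.89 CPM in Control 1 and 0.164 to 1.099 CPM elsewhere, and was not called. In As300 against Control edgeR called 0 genes of these lists, with at most 1 gene of a list higher and at most 3 lower at an unadjusted p under 0.05.

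Markers of cells that carry class II were summed per tumor to set beside the members. The members together had 1472 CPM in Control 1, 423 and 487 CPM in the other Control tumors, 2037 to 2278 CPM in ASC, 521 to 671 CPM in As300 and 2038 to 2641 CPM in ASC_As300. The 10 macrophage markers summed to 831 to 1145 CPM in Control, 1245 to 1754 CPM in ASC, 1160.1 to 1183 CPM in As300 and 1305 to 1556 CPM in ASC_As300, with none at 0 in any tumor. Of them, 4 (Fcgr1, C1qa, C1qb and C1qc) were called up in ASC and in ASC_As300 against Control, while 2 of 10 in ASC and 3 of 10 in ASC_As300 had values below 0, and 0 were called down. Dendritic cell markers summed to 44.3 to 69.7 CPM in Control, 64.7 to 78.0 CPM in ASC, 47.1 to 54.7 CPM in As300 and 67.3 to 86.1 CPM in ASC_As300, again with none at 0, and 0 of 10 were called by edgeR in ASC (2 were higher at an unadjusted p under 0.05) and 1 (Itgax) in ASC_As300. In Control 1, with 69.7 CPM, the dendritic cell sum was within the range of the tumors with ASC.
T cell markers summed to 68.2 CPM in Control 1, 10.6 and 11.6 CPM in the other Control tumors, 48.8 to 64.7 CPM in ASC, 8.93 to 14.1 CPM in As300 and 37.4 to 64.0 CPM in ASC_As300, and by edgeR 0 of 8 were called, or had an unadjusted p under 0.05, in ASC or ASC_As300 against Control, both of which include Control 1. In ASC_As300 against As300, 0 of 8 were called (0.793% of all genes were called up) and 7 were higher at an unadjusted p under 0.05. In the ASC effect over both iAs levels 1 was called, beside 1.36% of all genes called up, and 6 were higher at that unadjusted level. The share of all genes at the unadjusted level is not given here for these comparisons. The median log2 fold change of the 8 was 1.94 in ASC_As300 against As300, beside 0.0002 over all tested genes. It was 1.43 in the ASC effect, beside -0.0042 over all tested genes. The T cell sum divided the tumors as H2-Ab1 did apart from Control 1. B cell markers did not move with the members outside Control 1, with sums of 10.1 to 30.5 CPM in ASC and 12.1 to 12.7 CPM in ASC_As300, and at most 1 of the 10 was at 0 in a tumor. By edgeR 0 of these 10 were called in ASC against Control, and 7 were lower at an unadjusted p under 0.05. Plasma cell markers summed to 21.7 CPM in Control 1 and 0.3002 to 3.38 CPM elsewhere. The 4 general leukocyte markers summed to 225 to 395 CPM in Control, 341 to 446 CPM in ASC, 272 to 307 CPM in As300 and 372 to 447 CPM in ASC_As300. The 5 epithelial markers, again mostly Krt8, summed to 362 CPM in Control 1, 65.7 and 94.1 CPM in the other Control tumors, 29.8 to 48.6 CPM in ASC, 96.4 to 119 CPM in As300 and 26.9 to 36.7 CPM in ASC_As300. Of them 0 were called by edgeR in ASC against Control (2 were lower at an unadjusted p under 0.05) and 1 in ASC_As300 against Control, Krt8, which fell by 2.51 on the log2 scale (adjusted p = 0.0309), while Krt19 was at 0.54 ± 0.31 (adjusted p = 0.439) and Cdh1 at -0.14 ± 0.47 (adjusted p = 0.924). The part of cell numbers in the higher class II levels was not tested.

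**Figure D5:**
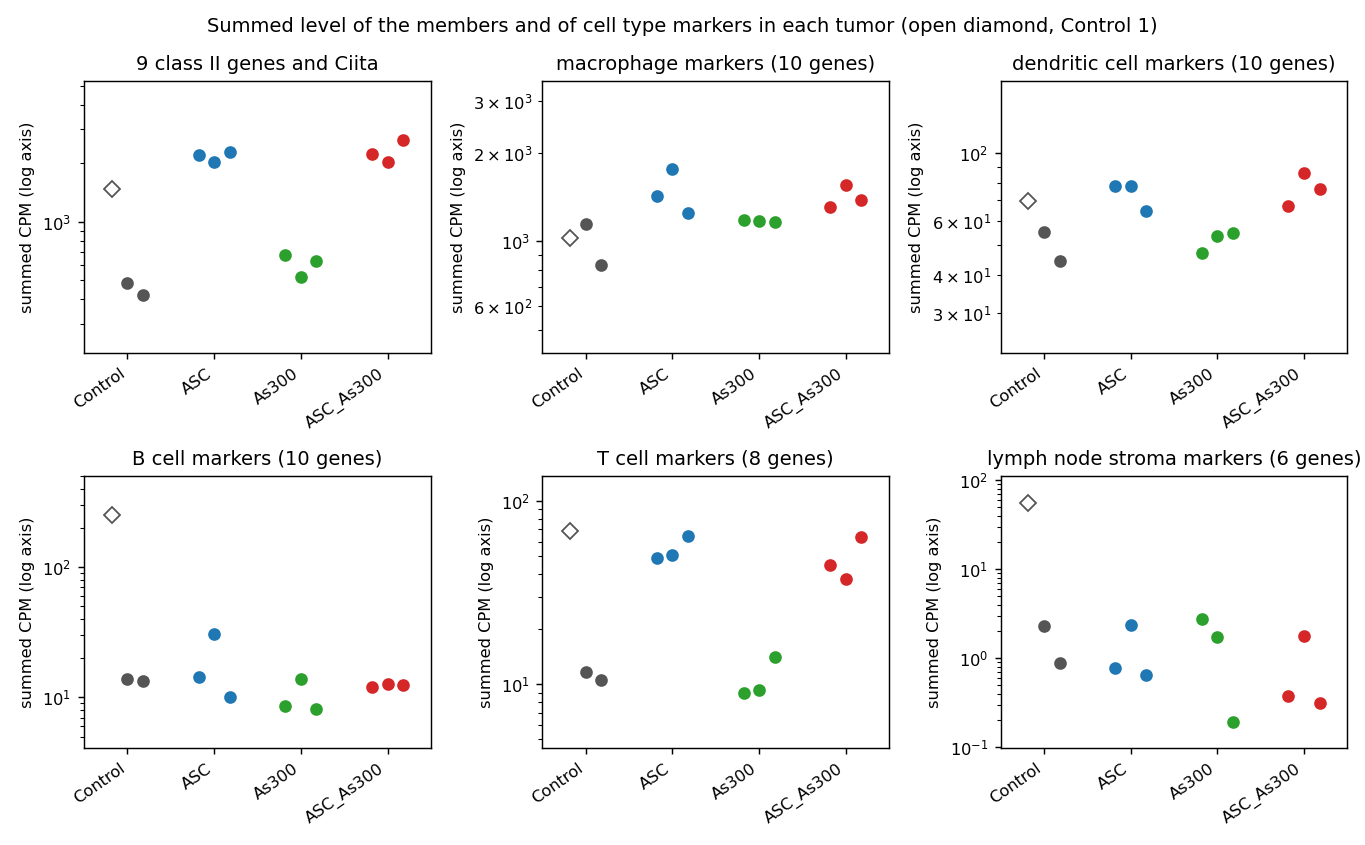
Summed CPM per tumor (log axes; Control 1 as an open diamond) of the 10 members and of markers for 5 cell types. The members are higher in the 6 tumors with ASC than in all others, the T cell markers are so apart from Control 1, and the B cell and lymph node stroma markers are highest in Control 1.

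The tested genes outside the members with profiles most like H2-Ab1 over the 12 tumors, by the root mean square difference of centered log2 CPM, were Psmb8 (0.22), Sh2d2a (0.22) and Psmb9 (0.23). Psmb8 and Psmb9 are subunits of the immunoproteasome, which cuts peptides for class I molecules, and their genes lie between H2-DMb1 and H2-Ob on chromosome 17. Those most like Ciita were Gm12856 (0.54), Dennd2d (0.55) and Tbx21 (0.56), the last being the master factor of type 1 helper T cells. Those most like H2-Ob included Cd79b (0.54), a subunit of the B cell receptor, and Cxcr5 (0.64), the receptor that guides B cells to follicles. The likeness to H2-Ob rests mainly on Control 1, where H2-Ob was at 34.0 CPM and at 4.21 CPM or less elsewhere.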

How the data were processed

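RNA from 12 tumors (4 groups of 3) was analysed from the deposited table of counts. The authors deposited whole-number counts without normalization, made from paired-end reads of a stranded poly(A) library. According to the submitters' processing notes and the paper, reads were trimmed with cutadapt 1.1.0, aligned with HISAT2 2.0 and quantified with StringTie 1.3.4. The genome build, the annotation and the step that made counts are not given in the sources used here. Total counts per tumor were 39157647 to 55168642. Low counts are more frequent at multiples of 4, so 12 counts were treated as the floor, which covers counting error only.

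Computations used R 4.3.3 with edgeR 4.0.16 and DESeq2 1.42.0. Low-count genes were removed by filterByExpr with the groups given (20818 of 55401 kept), and counts were scaled by TMM, and then fitted with 1 quasi-likelihood model of a mean per group over all 12 tumors. 8 comparisons were tested, with Benjamini-Hochberg adjustment over all tested genes. A call needs an adjusted p under 0.05 and at least 1.5-fold. Errors of log2 fold changes were computed from the F statistic. The fit was tested on simulated data. CPM uses TMM-scaled library sizes. Exon lengths came from GENCODE M21 (GRCm38) and promoters from RefSeq (GRCm38.p6).

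The members, gene lists and comparisons were chosen with earlier results of these data known. Named were all members, list genes called in a group against Control, and Ifng, Irf1, Rfx5, Ctss and Lag3, except that some results are not reported here. H2-Eb2, H2-Ea-ps, Creb1, Cd4, Col1a1, Krt8 and the called macrophage and dendritic cell markers were named after their values were seen. The 3 nearest profiles were taken for H2-Ab1, Ciita and H2-Ob. The smallest p of an exact test of 3 against 3 tumors is 0.1, so p-values come from the models, and they measure the spread between mice. Alternatives were DESeq2 size factors, other filters, the DESeq2 Wald test, no minimum fold, only the tumors compared, a replicate block, counts divided by 4, H2-DMb1 and H2-DMb2 summed, the longest transcript as length, and each tumor left out.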

Additional observations from a re-analysis of the deposited data

How the results depend on the processing

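The ASC effect over both iAs levels kept 6 or 7 of the 10 genes called under every alternative that was run, and As300 against Control, ASC_As300 against ASC, the iAs effect and the interaction kept 0. Fitting only the tumors compared gave 0 genes in ASC and 1 in ASC_As300 against Control, where the main fit gave 4 in each; such a fit has fewer tumors. With each tumor left out in turn the number called ran from 0 to 6 in ASC against Control, from 0 to 6 in ASC_As300 against Control and from 1 to 7 in ASC_As300 against As300. In ASC against Control it was 0 without Control 2, ASC 2 or ASC 3 and 2 without Control 3 or any 1 As300 or ASC_As300 tumor. In ASC_As300 against Control it was 0 without Control 2 or ASC_As300 3, 1 without ASC_As300 2 and 2 without Control 3 or ASC_As300 1. In ASC_As300 against As300 it was 1 without any 1 As300 tumor or ASC_As300 3, and 3 without ASC_As300 1 or 2. The cause was not tested.

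Signs turned mainly without Control 1. With each tumor left out in turn, the log2 fold change in ASC against Control ran from -1.17 to 0.81 for H2-DMb2, -2.08 to 2.32 for H2-Oa, -2.72 to 1.22 for H2-Ob and -0.75 to 1.21 for Ciita. In As300 against Control it ran from -0.69 to 0.41 for H2-Aa, -0.49 to 0.56 for H2-Ab1, -0.54 to 0.48 for H2-Eb1, -0.43 to 0.22 for H2-DMb1, -1.80 to 0.18 for H2-DMb2, -3.92 to 0.48 for H2-Oa, -3.85 to 0.078 for H2-Ob and -0.68 to 0.40 for Cd74. In ASC_As300 against Control it ran from -1.33 to 0.65 for H2-DMb2, -2.47 to 1.94 for H2-Oa and -3.38 to 0.55 for H2-Ob. In the ASC effect it ran from -0.35 to 0.64 for H2-DMb2, -0.31 to 1.89 for H2-Oa and -1.12 to 0.84 for H2-Ob. In the iAs effect it ran from -0.31 to 0.24 for H2-Aa, -0.19 to 0.33 for H2-Ab1, -0.22 to 0.28 for H2-Eb1, -0.17 to 0.15 for H2-DMb1, -0.98 to 0.0073 for H2-DMb2, -2.15 to 0.047 for H2-Oa, -0.31 to 0.23 for Cd74 and -0.50 to 0.48 for Ciita. The highest value came without Control 1 and the lowest without Control 2 or Control 3 in each of these, and the reverse holds for the interaction. There it ran from -0.33 to 0.77 for H2-Aa, -0.45 to 0.595 for H2-Ab1, -0.39 to 0.62 for H2-Eb1, -0.57 to 0.084 for H2-DMa, -0.14 to 0.51 for H2-DMb1, -0.35 to 1.64 for H2-DMb2, -0.86 to 3.54 for H2-Oa, -0.74 to 3.185 for H2-Ob and -0.34 to 0.74 for Cd74. In ASC_As300 against ASC the range was -0.010 to 0.16 for H2-Aa, -0.024 to 0.17 for H2-Ab1, -0.040 to 0.18 for H2-Eb1, -0.70 to 0.034 for H2-Oa and -0.042 to 0.15 for Cd74. H2-Ab1 in the iAs effect was also above 0 without As300 2 (0.0045). H2-Oa, at -0.02 in the ASC effect, was also above 0 without ASC 2 (0.14), As300 2 (0.25) or ASC_As300 1 (0.03). None of the turned values passed the test.

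Nothing in the sources used here says that equal replicate numbers pair the tumors. Deviations of equally numbered tumors from their group means correlated at -0.124 to 0.172, those of other pairs at -0.222 to 0.246. These ranges overlap and cannot show whether tumors were paired. With the replicate number as a block, 4 genes were called in ASC and 6 in ASC_As300 against Control, 5 in ASC_As300 against As300 and 6 in the ASC effect, where H2-DMb2 (0.029) and H2-Oa (0.31) turned above 0, as did Ciita in the iAs effect (0.023). DESeq2 called 6 genes in each of these 4 comparisons. The depth limits H2-Oa most, with 0 to 76 counts outside Control 1.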
